A study of Rattus norvegicus and Mus musculus with 24 samples.

Results

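The 9 circadian clock genes PER1, PER2, PER3, NR1D1, NR1D2, DBP, CIART, TEF and BMAL1 were followed in kidney RNA sequencing libraries of Ctns knockout (KO) and wild-type (WT) mice and rats. They were chosen by name, as core parts or direct outputs of the molecular clock, and all 9 were found among the 17376 symbols of the mouse table and among the 14931 symbols of the rat table. Both tables list BMAL1 under its older symbol ARNTL. Ctns encodes cystinosin, the lysosomal cystine transporter, and both lines are models of the storage disease cystinosis. Libraries came from 4 KO and 4 WT mice of C57BL/6 background and from 8 KO and 8 WT rats of Sprague-Dawley background, with 1 library an animal and WT littermates as controls. The knockouts were constitutive, so every cell type of the kidney carried them. The labels give kidney cortex as tissue and proximal tubule cells as cell type, while the extraction text speaks of dissected proximal tubules. The study's methods name kidney cortex as the source of the sequenced RNA, and microdissected proximal tubules as that of its microarrays. Per the study's reporting summary its mice were female, of several ages, and per its methods KO and control animals were matched in age and sex and kept under a light and dark cycle. Which age the sequenced mice had, the age and sex of the sequenced rats, any treatment and the hour of collection are not given in the sources used here. WT and KO numbers alternate in the rats, WT odd and KO even, in the ranges 17 to 24 and 25 to 32, each with 4 rats of each genotype. The labels do not say what the ranges stand for, and the rats of the 2 ranges were compared as a check on the clock genes that is separate from genotype.

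The clock is a feedback loop of transcription that runs with a period of about a day in nearly every cell. BMAL1 pairs with CLOCK or NPAS2 and switches on genes that carry E-boxes, among them those of its own repressors PER and CIART, those of the nuclear receptors NR1D1 and NR1D2 (REV-ERB alpha and beta), and those of the output factors DBP and TEF. NR1D1 and NR1D2 repress BMAL1 through ROR elements, so that BMAL1 transcripts peak when DBP transcripts are lowest, and in the kidney the clock is known for its daily rhythm in tubular transport. Levels of these transcripts are known to depend strongly on the hour of collection.

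The sequences of 4 rat promoters are shown because they hold an E-box or ROR element core of this loop in the window searched, and PER1, PER3, NR1D2 and DBP held none of the motifs there. Each is the stretch of 250 bases before a start site in RefSeq, build GRCr8, printed 5′ to 3′ with the matched motifs in capitals. In BMAL1 the capitals mark 2 ROR element cores, TAGGTTA and TAGGTCA, which begin 52 and 16 bases before the start. In CIART they mark 3 E-boxes, CACGTG, at 93, 35 and 21 bases, in TEF 1 E-box at 198 bases, and in NR1D1, at the second of its 2 listed starts, 1 E-box at 191 bases.
BMAL1, chr1:176766078-176766327, plus strand: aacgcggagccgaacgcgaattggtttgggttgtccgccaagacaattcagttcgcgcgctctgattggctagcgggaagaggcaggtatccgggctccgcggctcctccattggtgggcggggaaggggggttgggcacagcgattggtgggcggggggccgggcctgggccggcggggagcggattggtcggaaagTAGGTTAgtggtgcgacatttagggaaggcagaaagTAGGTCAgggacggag
CIART, chr2:186112247-186112496, minus strand: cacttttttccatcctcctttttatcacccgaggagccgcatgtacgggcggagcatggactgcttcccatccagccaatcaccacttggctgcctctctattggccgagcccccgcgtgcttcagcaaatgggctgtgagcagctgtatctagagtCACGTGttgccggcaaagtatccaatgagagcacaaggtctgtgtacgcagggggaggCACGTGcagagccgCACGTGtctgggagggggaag
TEF, chr7:115206577-115206826, plus strand: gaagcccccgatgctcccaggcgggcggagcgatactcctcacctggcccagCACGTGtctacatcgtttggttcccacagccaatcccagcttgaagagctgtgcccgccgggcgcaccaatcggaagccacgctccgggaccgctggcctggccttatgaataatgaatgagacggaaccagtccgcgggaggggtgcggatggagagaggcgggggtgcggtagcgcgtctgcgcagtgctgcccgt
NR1D1, chr10:84229455-84229704, minus strand: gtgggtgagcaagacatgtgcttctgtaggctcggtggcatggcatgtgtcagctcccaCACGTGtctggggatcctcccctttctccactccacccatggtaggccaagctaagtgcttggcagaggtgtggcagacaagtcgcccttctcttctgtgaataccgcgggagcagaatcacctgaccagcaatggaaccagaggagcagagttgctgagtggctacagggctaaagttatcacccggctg
Both strands were searched in all 33469 promoter windows of the same length. CACGTG was found in 5.59% of all windows and in those of 3 of the 9 members. TAGGTCA was found in 2.26% and TAGGTTA in 1.42%, and among the members both were found in BMAL1 alone. CACGTT, a weaker E-box, was found in 4.07% of windows and in PER2 and the first start of NR1D1, and the D-box TTATGTAA, the element that DBP and TEF bind, in 0.828% and in PER2. TTACGTAA was found in 0.108% of windows and in no member. A match is a description of the sequence and not a binding site.

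Read depth was 19309449 to 44449859 a mouse and 24684097 to 40629873 a rat. Mouse values were the deposited scaled values, in which 1 is the 75th percentile of the library, and rat values are CPM, reads scaled to a common library total. CTNS itself was at 0.319 to 0.342 in KO mice and 0.824 to 1.03 in WT mice, a log2 fold change of -1.23 ± 0.06 (SE, limma, adjusted p = 0.00039). In rats CTNS was at 16.8 to 22.2 CPM in KO and 19.2 to 27.8 CPM in WT, a log2 fold change of -0.22 ± 0.07 (edgeR, adjusted p = 0.015), and the groups overlapped. KO mouse 3 stood apart from the other 7 mice in the X-linked transcript XIST, with 49 reads against 17581 to 42003, while the Y-linked DDX3Y, KDM5D, USP9Y and UTY were at 0 reads in all 8 mice, KO mouse 3 included, so mouse values are also given without it where they rest on it. In these bulk libraries, fewer cells of a type and less RNA in each cell cannot be told apart.

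In mice, no clock gene passed the test, and PER1 and NR1D1 came nearest, PER1 toward a higher level in KO and NR1D1 toward a lower one. Across the genome limma called 4.71% of symbols, a share so low that 0 of 9 members cannot be told apart from it. At an unadjusted p under 0.05 there were 3 members, beside 18.6% of all symbols. On the recovered reads edgeR called 1 member, NR1D1, beside 8.91% of all symbols, and DESeq2 called 3, NR1D1, PER1 and CIART, beside 11.3%. The median log2 fold change of the 9 members was 0.13, beside 0.00 for all symbols.

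PER1, a repressor of BMAL1 that is also quickly induced by hormones and by stimulation, was at 0.849, 1.55, 0.797 and 1.17 in the WT mice 1, 2, 4 and 7. In the KO mice 3, 5, 6 and 8 it was at 2.73, 1.77, 1.82 and 2.04. Every KO mouse was above every WT mouse, with KO mouse 3 the highest, and the ratio of the means was 1.91. The log2 fold change was 0.90 ± 0.22 (SE, limma, adjusted p = 0.067), and it was 0.77 ± 0.22 without KO mouse 3 (adjusted p = 0.13) and 1.07 without WT mouse 2, when it passed (adjusted p = 0.035). The 10 immediate early genes, which respond to stimulation, summed to 3.11 to 3.84 in KO and 1.999 to 2.73 in WT mice, with 4 of 10 called higher beside 3.81% of all symbols, and their part in the PER1 values was not tested.

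NR1D1, the repressor of BMAL1, was at 3.01, 2.39, 2.38 and 2.57 in the WT mice and at 2.17, 2.17, 2.204 and 2.04 in the KO mice. The groups did not overlap, which held for 11.6% of all symbols and for 2 of the 9 members, and the KO mice lay close together. The log2 fold change was -0.25 ± 0.08 in limma (adjusted p = 0.12) and -0.29 ± 0.08 in edgeR on reads (adjusted p = 0.029). NR1D2, its close relative, overlapped between genotypes, at 2.80, 4.02, 2.55 and 3.53 in WT and 3.99, 3.04, 3.53 and 3.41 in KO mice, a log2 fold change of 0.13 ± 0.15 (limma, adjusted p = 0.77).

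CIART, a repressor of the BMAL1 and CLOCK pair, was at 0.133, 0.314, 0.190 and 0.227 in WT mice and at 0.371, 0.262, 0.389 and 0.334 in KO mice. WT mouse 2 lay above KO mouse 5, so the groups overlapped, and the log2 fold change was 0.50 ± 0.18 (limma, adjusted p = 0.19). PER2 was at 0.799, 0.947, 0.925 and 0.906 in WT mice and at 1.63, 0.829, 1.04 and 1.33 in KO mice, where the KO mice spread over a far wider interval, and its log2 fold change of 0.36 ± 0.18 (adjusted p = 0.36) was 0.21 ± 0.14 without KO mouse 3. BMAL1, the activator, was low in mouse kidney, with 43 to 177 reads in WT and 32 to 87 in KO libraries, and the groups overlapped. Its log2 fold change was -0.15 ± 0.09 on the limma scale (adjusted p = 0.46), a scale that understates low genes. The output factors and PER3 differed less between genotypes, with log2 fold changes of 0.04 ± 0.14 for DBP, -0.05 ± 0.10 for TEF and 0.14 ± 0.17 for PER3 and with overlapping groups.

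**Figure D1:**
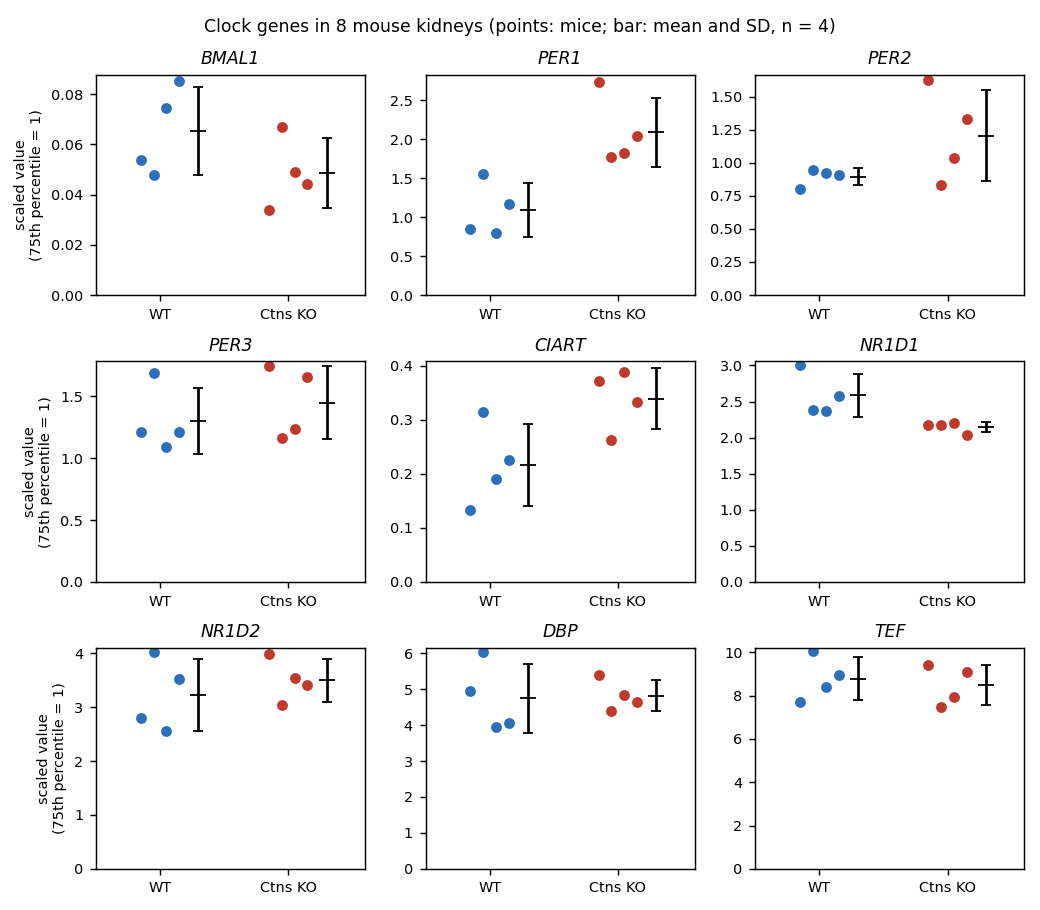
Scaled values of the 9 clock genes (y axis, library 75th percentile = 1) in 4 WT and 4 Ctns KO mice, 1 point a mouse, with mean and SD beside them. In PER1 and NR1D1 the genotypes do not overlap, and in the other 7 genes they do.

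In rats 2 of 9 members passed the test of genotype, NR1D1 and NR1D2, both lower in KO. Across the genome edgeR called 44% of symbols, and 22.6% in the lower direction, so the share of members called was not above that of all genes. The median log2 fold change was -0.25 over the members and -0.02 over all symbols, and 8 of 9 members had a negative value. In none of the 9 did the 8 KO and 8 WT rats separate, as 5.85% of all symbols did.

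NR1D1 was at 104 CPM in the lowest WT rat, 130 in the median and 199 in the highest, against 92.7, 106 and 142 in KO rats. Its log2 fold change was -0.31 ± 0.12 (SE, edgeR, adjusted p = 0.042). NR1D2 ran from 39.9 CPM over a median of 66.7 to 86.7 in WT and from 36.0 over 54.7 to 73.1 in KO rats, with a log2 fold change of -0.37 ± 0.13 (adjusted p = 0.032). Both calls were near the threshold: leaving out 1 rat at a time lost the call of NR1D1 in 11 of 16 omissions and that of NR1D2 in 10 of 16, and with genotype alone in the fit neither passed (adjusted p = 0.085 and 0.12).

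The PER genes and the outputs did not pass in the whole set of rats. PER2 ran from 40.3 CPM over a median of 88.0 to 104.7 in WT and from 47.1 over 60.4 to 89.4 in KO rats (log2 fold change -0.34 ± 0.16, adjusted p = 0.10). PER3 ran from 21.4 over 36.4 to 43.2 CPM in WT and from 18.9 over 29.2 to 50.6 in KO (-0.25 ± 0.14, adjusted p = 0.17). In both genes the WT rat 17 lay at the low end of the WT group. TEF, with 132, 249 and 287 CPM as lowest, median and highest in WT and 174, 185 and 254 in KO, had a log2 fold change of -0.25 ± 0.13 (adjusted p = 0.12). DBP, with 115, 298 and 365 CPM in WT and 188, 247 and 316 in KO, had one of -0.16 ± 0.19 (adjusted p = 0.53).

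In these 2 output factors as well, WT rat 17 was the lowest of all 16 rats. Without WT rat 17, PER2 (log2 fold change -0.45, adjusted p = 0.0078), PER3 (-0.34, adjusted p = 0.021) and TEF (-0.34, adjusted p = 0.0099) passed the test as lower in KO beside NR1D1 and NR1D2, 5 members in all beside 22.1% of all symbols called lower in that fit, while DBP did not (-0.28, adjusted p = 0.079). WT rat 17 is the library with the lowest values of PER2, TEF and DBP, so its omission by itself raises the WT mean of these genes. The same 5 members passed when the rats 17, 18, 25 and 26 were left out, which removes 1 rat of each genotype from each range, a choice made after the data were seen, and 18.9% of all symbols were called lower there.

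BMAL1, CIART and PER1 had standard errors so wide that the fold changes in rats are poorly determined. BMAL1 was at 5.12 CPM in the lowest WT rat, 7.23 in the median and 31.1 in the highest, against 5.08, 8.08 and 19.3 in KO rats, a log2 fold change of -0.30 ± 0.40 (adjusted p = 0.58) that was 0.16 without WT rat 17. CIART was at 0.725, 5.18 and 7.39 CPM in WT and 2.81, 5.09 and 7.95 in KO rats (0.12 ± 0.33, adjusted p = 0.78, and -0.04 without WT rat 17). PER1 was at 21.5, 64.5 and 134 CPM in WT and 35.7, 61.5 and 90.8 in KO rats (-0.09 ± 0.32, adjusted p = 0.83). In these genes the extremes of the 16 rats were mostly WT rats, and the genotypes overlapped along most of their range.

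**Figure D2:**
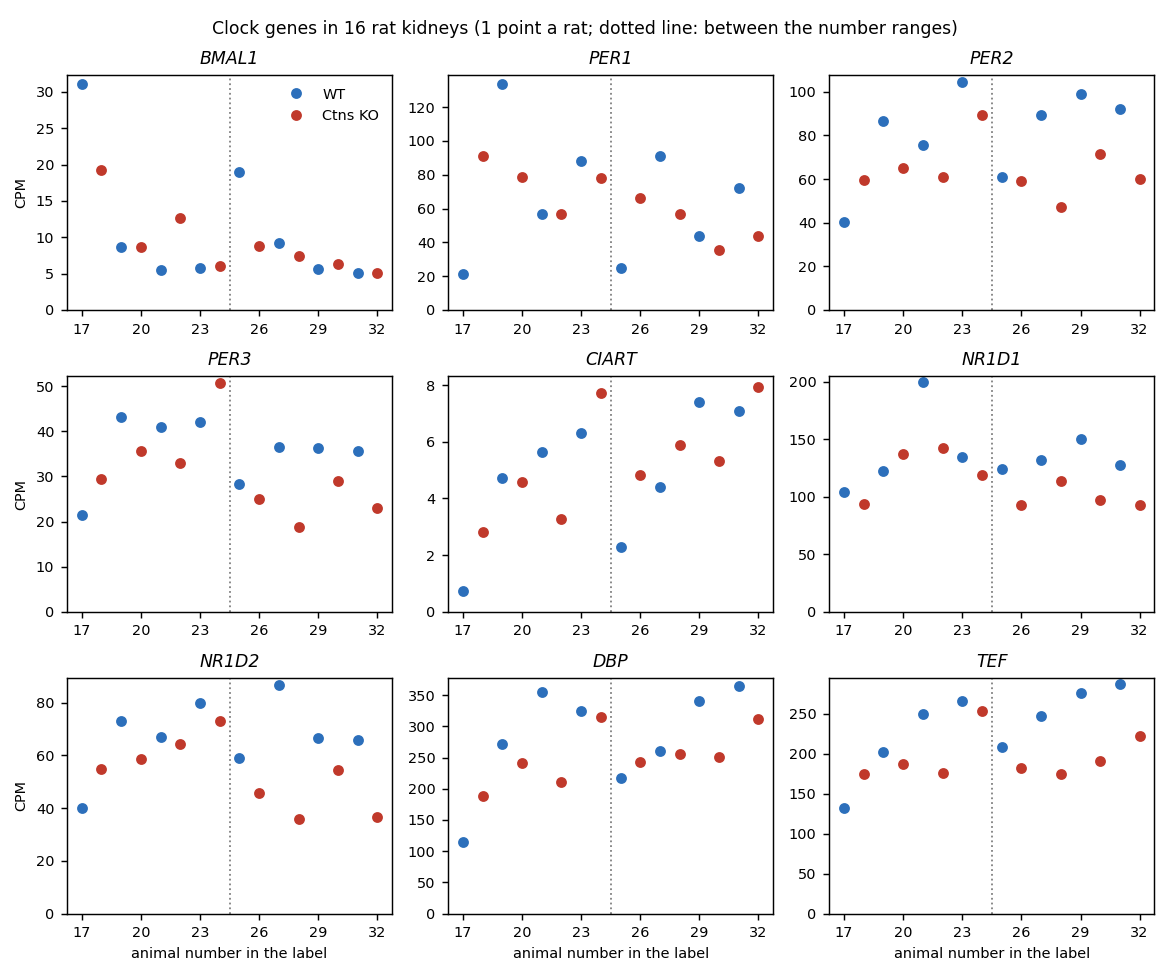
CPM of the 9 clock genes (y axis) in 16 rats by the animal number of the label (x axis), WT in blue and Ctns KO in red, with a dotted line between the number ranges. WT rats 17 and 25 have the lowest CIART and DBP of their range and the highest BMAL1.

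Within the number ranges, the KO rats of 25 to 32 differed from their WT rats in 3 clock genes and those of 17 to 24 in none. In rats 17 to 24 the test called 6.96% of all symbols and 0 of 9 members. At an unadjusted p under 0.05 there were 0 members, beside 2298 of all 11839 symbols. The log2 fold changes of the members ran from -0.19 (NR1D1) to 0.06 (CIART). In rats 25 to 32 it called 50% of all symbols, 26.2% as lower, and 3 of 9 members, NR1D1, NR1D2 and PER3, all lower in KO. NR1D1 and NR1D2 did not overlap between genotypes there, as 40.1% of all symbols did not.

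NR1D2 was at 59.0, 86.7, 66.5 and 65.6 CPM in the WT rats 25, 27, 29 and 31 and at 45.8, 36.0, 54.4 and 36.8 in the KO rats 26, 28, 30 and 32. Its log2 fold change of -0.68 ± 0.19 (edgeR, adjusted p = 0.0066) was the largest of the members in this range, and it passed in all 16 omissions of 1 rat. NR1D1 was at 124.6, 132, 150.1 and 128 CPM in these WT rats and at 92.7, 114, 97.6 and 93.2 in the KO rats (-0.43 ± 0.17, adjusted p = 0.041). PER3 was at 28.3, 36.5, 36.3 and 35.5 in WT and at 24.996, 18.9, 29.05 and 23.04 in KO rats (-0.51 ± 0.21, adjusted p = 0.0499), and WT rat 25 lay below KO rat 30. NR1D1 lost its call in 7 of 16 omissions and PER3 in 11 of 16. PER2 (-0.52 ± 0.23, adjusted p = 0.074) and TEF (-0.40 ± 0.18, adjusted p = 0.073) did not pass here, and both passed when the 8 rats of this range were fitted alone (adjusted p = 0.021 and 0.012), a fit that called 22.1% of all symbols lower.

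The difference of the genotype effect between the ranges, tested as an interaction, passed for 14.7% of all symbols and for 0 of 9 members. NR1D2 had an interaction of -0.63 ± 0.26 on the log2 scale (edgeR, adjusted p = 0.11), and was the 1 member at an unadjusted p under 0.05, as 32.4% of all symbols were. Macrophage markers summed to 231 to 327 CPM in the KO rats of 25 to 32, against 101 to 129 in their WT rats and 114 to 131 in the KO rats of 17 to 24, with 4 of 4 markers called higher in KO beside 23.7% of all symbols. The 6 proximal tubule markers tested summed to 5795 to 6955 CPM in the KO rats of 25 to 32. In their WT rats the sum was 11211 to 12543 CPM. Lower calls in KO were made for 4 of 6 markers, beside 26.2% of all symbols. SLC34A1 was the largest term of the sum, at 3080 to 3649 CPM in these KO and 6220 to 6851 in these WT rats. SLC5A2 and SLC7A13 overlapped between the genotypes, so the sum does not describe every marker. The part of these marker differences in the lower NR1D1, NR1D2 and PER3 was not tested.

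Between the number ranges themselves, PER3 was the 1 member of 9 that differed, lower in 25 to 32, beside 46.2% of all symbols called and 21.5% called lower. PER3 ran from 21.4 CPM over a median of 38.3 to 50.6 in rats 17 to 24 and from 18.9 over 28.7 to 36.5 in rats 25 to 32, with overlap, and the log2 fold change was -0.37 ± 0.14 (edgeR, adjusted p = 0.044). The call was lost in 11 of 16 omissions. In WT rats alone no member differed between the ranges, while 21.1% of all symbols did. No member had an unadjusted p under 0.05 there, beside 3961 of all 11839 symbols. In KO rats alone PER3 (-0.63 ± 0.20, adjusted p = 0.020) and NR1D2 (-0.53 ± 0.19, adjusted p = 0.028) were lower in 25 to 32, beside 47% of all symbols called and 22.8% called lower. The remaining members had range differences from -0.57 ± 0.40 (BMAL1) over -0.48 ± 0.33 (PER1), -0.22 ± 0.13 (NR1D2), -0.19 ± 0.12 (NR1D1), -0.03 ± 0.16 (PER2), 0.11 ± 0.13 (TEF) and 0.15 ± 0.19 (DBP) to 0.32 ± 0.33 (CIART). DBP, TEF and CIART thus had the sign opposite to that of BMAL1, each at less than 1 standard error from 0. PER1, PER2, PER3, NR1D1 and NR1D2 had the sign of BMAL1, and of all these only PER3 passed the test.

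**Figure D3:**
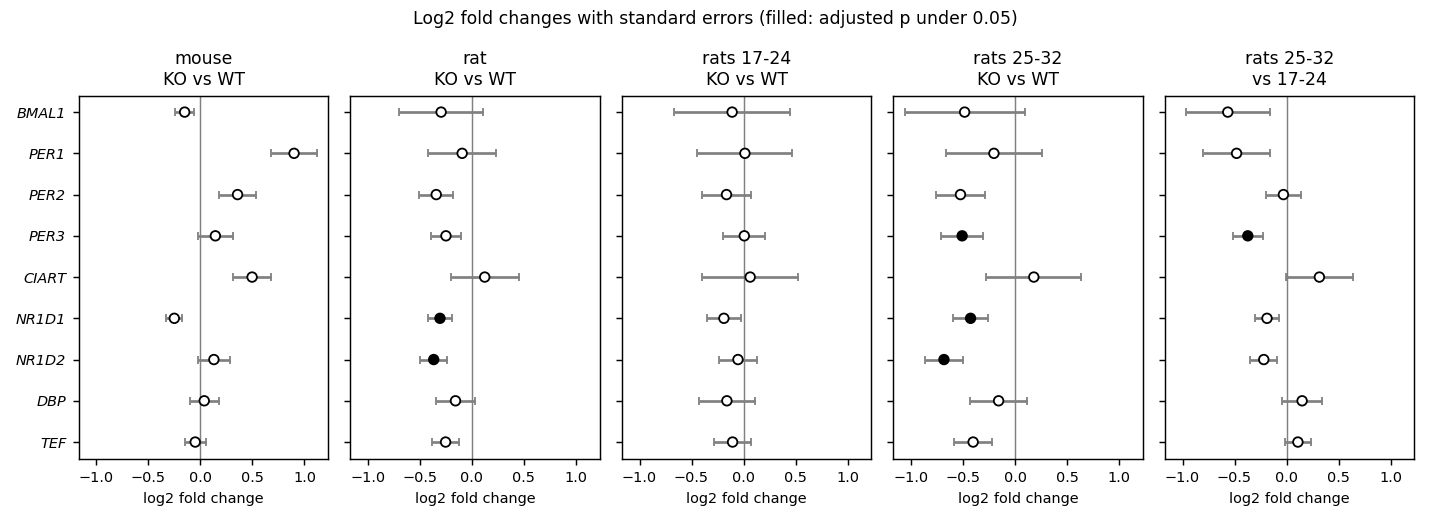
Log2 fold changes (x axis) with standard errors for the 9 clock genes in 5 comparisons, where filled points passed the test at an adjusted p under 0.05. The filled points are NR1D1 and NR1D2 in rat KO against WT, these with PER3 in rats 25 to 32, and PER3 between the ranges.

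Rats of the same genotype and range differed widely in the clock genes. The standard deviation of log2 CPM within the 4 groups of 4 rats was 0.90 for CIART, 0.82 for BMAL1 and 0.74 for PER1, which placed them at the percentiles 99.8, 99.7 and 99.6 of the 10819 symbols at 1 CPM or more, whose median was 0.14. DBP (0.45, percentile 97.3), PER2 (0.38, percentile 95.1) and PER3 (0.34, percentile 91.9) followed. NR1D2 (0.30), TEF (0.29) and NR1D1 (0.26) were the least variable, at percentiles 88.9, 87.5 and 83.0. The highest rat exceeded the lowest by 10.96-fold in CIART, 6.12-fold in BMAL1, 6.23-fold in PER1 and 3.16-fold in DBP, and by 2.15-fold to 2.68-fold in the other 5.

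**Figure D4:**
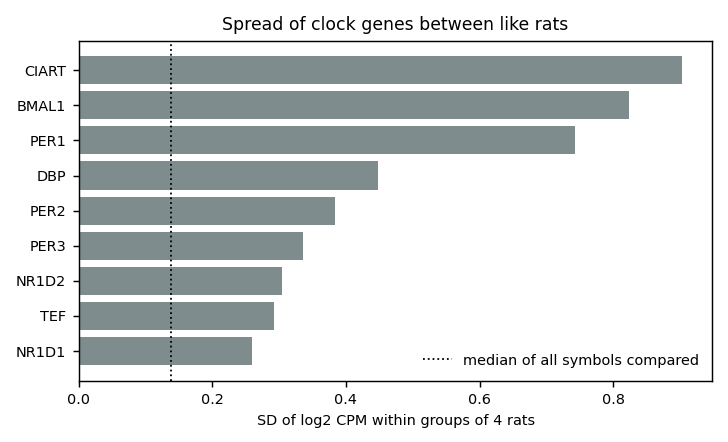
Standard deviation of log2 CPM (x axis) within groups of 4 rats of 1 genotype and number range for the 9 clock genes, with the median of 10819 symbols as dotted line. All 9 bars pass the line, from 0.26 for NR1D1 to 0.90 for CIART.

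This spread ran in opposite directions in BMAL1 and in the outputs. WT rat 17 had 31.1 CPM of BMAL1 with 115 of DBP, 0.725 of CIART and 132 of TEF, and WT rat 25 had 18.95 of BMAL1 with 217 of DBP, 2.27 of CIART and 208 of TEF. At the other end, WT rat 31 had 5.12 CPM of BMAL1 with 365 of DBP, 7.09 of CIART and 287 of TEF, and KO rat 32 had 5.08 of BMAL1 with 311, 7.95 and 222. KO rats 18 and 22, with 19.3 and 12.7 CPM of BMAL1 and 188 and 210 of DBP, lay toward the end of WT rat 17. Both genotypes therefore held rats toward either end, and the DBP over BMAL1 ratio, which compares rats and not the levels of the 2 genes, ran from 3.71 in WT rat 17 to 71.2 in WT rat 31.

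Deviations of log2 CPM from the means of genotype and range were correlated over the 16 rats as a description, since the rats share the scaling of each library. DBP went most closely with CIART (r = 0.98) and TEF (r = 0.96) among 10819 symbols, followed by HERPUD1, MTHFD1L and SLC25A42 (r = 0.94, 0.94 and 0.92), and most nearly opposite to it was BMAL1 (r = -0.97). BMAL1 went most closely with NPAS2 (r = 0.95), its partner in the activator pair, followed by NDRG1, SLC29A1, EHD4 and SLC16A1 (r = 0.90 to 0.92). Without WT rats 17 and 25, the values of DBP with CIART, TEF and BMAL1 were 0.95, 0.90 and -0.96, and that of BMAL1 with NPAS2 was 0.91. The genes outside the clock lists fell further. Without these rats HERPUD1, MTHFD1L and SLC25A42 were at 0.77, 0.83 and 0.88 with DBP. NDRG1, SLC29A1, EHD4 and SLC16A1 were then at 0.72, 0.81, 0.67 and 0.87 with BMAL1. The other members were tied less closely to DBP, with r of 0.84 for PER2, 0.82 for PER3, 0.62 for NR1D2 and 0.58 each for NR1D1 and PER1. Without the 2 rats these became 0.45, 0.48, -0.12, 0.33 and -0.43, so the relation of PER1 and NR1D2 to DBP rested on them.

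**Figure D5:**
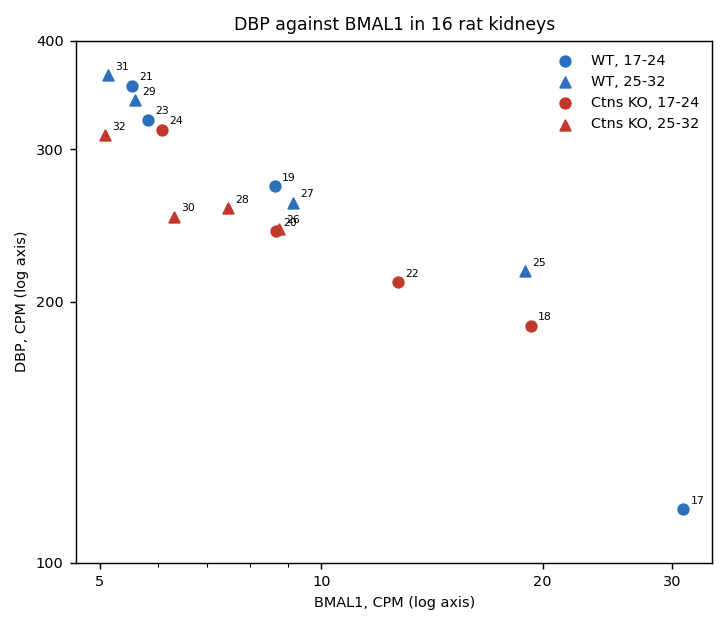
DBP (y axis, CPM, log axis) against BMAL1 (x axis, CPM, log axis) in 16 rats, numbered as in the labels, with colour for genotype and shape for number range. The points fall from WT rat 31 (5.12 and 365 CPM) to WT rat 17 (31.1 and 115 CPM), with both genotypes along the way.

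Among 20 further clock genes, 18 were tested in mice and 16 in rats. In mice 1 of 18 was called, beside 4.71% of all symbols: TIMELESS, a replication and clock factor, at a log2 fold change of 0.31 ± 0.05 (limma, adjusted p = 0.017). In rats 6 of 16 were called, a share below the 44% of all symbols called, 3 of them higher and 3 lower in KO, beside 21.4% and 22.6% of all symbols. Higher were TIMELESS (0.80 ± 0.11, edgeR, adjusted p = 1.5e-05), NFIL3, the repressor that competes with DBP and TEF for D-boxes (0.78 ± 0.16, adjusted p = 0.00081), and CSNK1D, a kinase of the PER proteins (0.09 ± 0.03, adjusted p = 0.043). Lower were HLF, of the DBP and TEF family (-0.72 ± 0.13, adjusted p = 0.00023), CLOCK (-0.59 ± 0.18, adjusted p = 0.017) and RORA, an activator of BMAL1 (-0.40 ± 0.11, adjusted p = 0.00998), whose rat values were not all whole reads. HLF and NFIL3 thus passed while DBP and TEF did not, and the genotype effects of HLF and NFIL3 differed between the ranges by interactions of -0.86 ± 0.25 (adjusted p = 0.033) and 1.21 ± 0.32 (adjusted p = 0.020). These were the 1 lower and the 1 higher call among the 16, beside 14.7% of all symbols. WT rat 17 was at 8.82 CPM of HLF against 14.6 to 17.8 in the other WT rats of its range, and at 7.17 of NFIL3 against 2.92 to 3.38. The interactions without that rat are not given here. CSNK1D was the 1 gene of this list that differed between the ranges, beside 46.2% of all symbols (0.14 ± 0.03, adjusted p = 0.0034).

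Lists of genes that respond to hormones and stimulation were set beside the clock genes. Of the glucocorticoid-responsive genes, 0 of 7 were called in mice, beside 4.71% of all symbols. In rats 1 of 5 was called, beside 44% of all symbols: KLF9, lower in KO (-0.56 ± 0.14, edgeR, adjusted p = 0.0047). Between the ranges 1 of 5 was called, beside 46.2% of all symbols: PDK4, lower in 25 to 32. Of the immediate early genes, 7 of 9 were higher in KO rats, beside 21.4% of all symbols, with sums of 142 to 234 CPM in KO and 112 to 140 in WT rats. PER1, which shares inducers with them, had the log2 fold change of -0.09 given above.

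The KO effect of the 2 species was compared in 1 fit on the scaled values, where 12% of the shared symbols and 0 of 9 members passed. PER2, toward higher in KO mice and lower in KO rats, had the lowest unadjusted p, with a rat minus mouse difference of -0.61 ± 0.28 on the log2 scale (limma, adjusted p = 0.17), which was -0.74 without WT rat 17 and then passed (adjusted p = 0.038). For PER1 the difference was -0.78 ± 0.48 (adjusted p = 0.33). NR1D1 had nearly the same value in both species, with a difference of 0.00 ± 0.18 (adjusted p = 0.99).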

How the data were processed

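Bulk RNA was sequenced from kidney of 8 mice and 16 rats. Per the labels, the submitters' processing notes name bcl2fastq 2.20, STAR 2.7.3, DESeq2 1.24.0, R 3.6.1 and the builds mm10 and rn5; counting tool and annotation are not given in the sources used here. The mouse table deposited by the authors holds a scaled signal, (reads + 0.5) over (75th percentile + 0.5) as worked out from the values, and 98.988% of values returned whole reads within 0.01. The rat table deposited by the authors holds estimated counts with a constant added, which was removed before rounding to whole reads (97.723% whole within 0.01). All members were whole reads in both tables.

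Groups came from the genotype labels and animal numbers. Mouse values were tested with limma 3.58.1 (trend, robust) on log2(value + 0.1) over 17376 symbols, so fold changes of low genes are understated. Rat reads were tested with edgeR 4.0.16 (TMM, quasi-likelihood, robust, filterByExpr) over 11839 symbols, with cell means of genotype by number range. P-values were adjusted by Benjamini-Hochberg over all symbols, threshold 0.05. On simulated data with 200 genes changed by a fold of 2, limma recovered 97.5% of them in the mouse comparison of 13442 symbols and edgeR 99% in the rat genotype comparison of 11772, with 14 false calls in each. The changed genes were drawn from all symbols at 1 CPM or more. The members had a wider spread than the median symbol and mostly smaller fold changes, so these shares are not the power for the members. No pair of replicates was alike within sampling noise (lowest chi-square per degree of freedom 12.3 in mice, 8.60 in rats). Nothing in the sources ties samples to separate litters or batches, so p-values measure the spread between these animals. Promoters are those of RefSeq, build GRCr8, which is not the build of the reads, and all 9 members matched there. Alternatives were DESeq2 1.42.0, other size factors, voom, other pseudocounts and filters, the genotype or range alone, and each animal left out. Members and gene lists were chosen with earlier results of these data known. Named genes were all members, the other clock genes called in the mouse, rat or range comparison, and the 5 symbols closest in deviation to DBP and to BMAL1, while the opposite symbols, PDK4 and KLF9 were added after their values were seen.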

Additional observations from a re-analysis of the deposited data

Results flagged for a closer look

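For each of the 9 members, single animals far from their group were sought by the size of the gap against the group's range. Chance gives about 1 such case in 20 tests. The members were measured in the same rats and partly vary together, so the count is not a test against chance. A single rat stood far from the other 3 of its genotype and range in 4 of the 36 groups of 4 rats tested. None of the 18 mouse groups and none of the 18 groups of 8 rats held such an animal. These were BMAL1 in WT rat 17, at 31.1 CPM against at most 8.65 in the other WT rats of 17 to 24, PER3 in WT rat 17, at 21.4 CPM against at least 41.0, PER3 in WT rat 25, at 28.3 CPM against at least 35.5 in the other WT rats of 25 to 32, and TEF in KO rat 24, at 254 CPM against at most 187 in the other KO rats of 17 to 24. In WT rats 17 and 25 the other output genes DBP, TEF and CIART were also at the lowest value of their group.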

How the results depend on the processing

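No paired analysis was run, because the labels name no litter or pair of WT and KO animals. For mouse KO against WT, members called went from 0 to 3 with DESeq2 and to 1 with edgeR on recovered reads under either size factors, and all symbols called from 819 to 1518 with DESeq2. For rat KO against WT, members went from 2 to 0 with genotype alone, 1 without a filter on low counts and, in alternatives chosen after seeing the data, 5 with the place in the number range as a term and 5 without rats 17, 18, 25 and 26; all symbols fell from 5211 to 3180 with genotype alone. In rats 25 to 32, members went from 3 to 1 without a filter and to 5 with these 8 rats alone, with the place term and without rats 17, 18, 25 and 26. Between the ranges, members went from 1 to 0 with limma-voom, without a filter and with the range alone, and to 2 without rats 17, 18, 25 and 26, while all symbols went from 5464 to 3382 with the range alone. The interaction called 1745 symbols, and 1033 without those 4 rats.

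Leaving out 1 animal at a time, members called ranged from 0 to 1 in mice (1 without WT mouse 2), 0 to 5 in rat KO against WT (5 without WT rat 17), 1 to 5 in rats 25 to 32 (1 without KO rat 26 or 32 or WT rat 27, 29 or 31, and 5 without WT rat 17), 0 to 2 between the ranges (2 without WT rat 17), 0 to 3 between the ranges in KO rats (0 without KO rat 24 or 28) and 0 to 1 for the species difference. All symbols called ranged from 412 to 790 in mice (lowest without KO mouse 6), 503 to 890 in rats 17 to 24 (lowest without WT rat 21) and 1010 to 2392 for the interaction (lowest without KO rat 28). Signs turned, without a call, for rat KO against WT in BMAL1 (0.15 with the place term, 0.19 without the 4 rats, -0.45 to 0.16 without 1 rat), CIART (-0.027 and -0.034, -0.065 to 0.24) and PER1 (0.081 with voom, -0.25 to 0.12), for mouse DBP (-0.044 to 0.16) and TEF (-0.11 to 0.016), and for PER2 between the ranges (-0.14 to 0.062). The cause was not tested. Depth gave CIART 18 reads in WT rat 17 and BMAL1 32 to 177 in mice, so counting error is largest there.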

Other observations

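The place of a rat's number within its range, from the first to the last of 8, was added to the rat fit as a linear term after the values had been seen. Of 11839 symbols, 1 passed, NPAS2, with a log2 change of -0.19 ± 0.03 for each place (edgeR, adjusted p = 0.031). BMAL1 had the larger value of -0.28 ± 0.05 (adjusted p = 0.12), and CIART (0.22 ± 0.05, adjusted p = 0.42), DBP (0.13 ± 0.03, adjusted p = 0.42) and TEF (0.09 ± 0.02, adjusted p = 0.24) had the opposite sign without passing. PER1 (0.01 ± 0.08) and NR1D1 (0.04 ± 0.03) had small values. With the term in the fit, PER2 (-0.42 ± 0.13, adjusted p = 0.014), PER3 (-0.32 ± 0.12, adjusted p = 0.045) and TEF (-0.33 ± 0.08, adjusted p = 0.0028) were lower in KO beside NR1D1 and NR1D2, and 21.5% of all symbols were called lower. WT rats held the odd places and KO rats the even ones, so genotype and place are partly confounded. The genotype values of this fit therefore depend on the slope fitted to place, and the main genotype comparison carries the same offset. The labels do not say whether the numbers follow the order of collection, and no cause was tested.

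In mice the spread of each of the 9 clock genes lay above the median of the symbols compared. The standard deviation of the log2 values within groups of 4 mice was 0.35 for PER1, 0.28 for PER2 and CIART and 0.27 for PER3, at the percentiles 98.7, 97.7, 97.6 and 97.3 of 10765 symbols, against a median of 0.10. NR1D2 (0.23), DBP (0.21) and TEF (0.16) were at the percentiles 95.97, 94.9 and 86.8. BMAL1 had 0.14, at percentile 82.7, but its values of 0.034 to 0.085 lay below the 0.1 added before the log. Its spread is therefore understated, and its mean did not reach that of the symbols it is ranked against. NR1D1, the gene with the lowest spread of the 9 in both species, was at 0.11 and the percentile 65.1.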
